A study of Mus musculus with 40 samples.

Results

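Dbp, Tef, Hlf, Nfil3 and Usp2 are output genes of the circadian clock, and they were followed here in the pancreas of 40 mice as every probe whose gene symbol was in this set. They are 5 of the 16593 genes on the array and had 8 of its 25697 probes. Of these 8 probes, 6 were bright enough to be tested and covered all 5 genes. Each of the 40 male C57BL/6J mice gave pancreas RNA for a single Illumina expression array, to ask how the diet of the dam and the diet after weaning influenced gene expression in the offspring. Groups are named with the dam diet before the offspring diet, so that HF_HF mice were born to dams on a high fat (HF) diet and were weaned onto it, HF_LF mice were born to such dams but weaned onto a low fat (LF) diet, LF_HF mice came from LF dams but were weaned onto HF, and LF_LF mice met only the LF diet (n = 10 each). Dams ate their diet before mating, through pregnancy and until weaning, coconut oil was the main fat of both diets, and all offspring were killed at 9 weeks of age after a fast of 4 h. The animals of this inbred strain lived in a light-dark cycle. The hour at which each animal was killed was not given in the sources used here. The animals carried 12 cage labels, 6 per dam diet. Since 5 of the cages held animals of both offspring diets, the label is read here as the cage of birth, which may hold more than 1 litter.

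The circadian clock is a loop. Its activators Clock and Arntl (Bmal1) bind E-box sequences and switch on their own repressors, the Per and Cry genes. The messages of many genes of this loop swing over the day in most tissues, pancreas included. Dbp, Tef and Hlf encode the PAR bZIP transcription factors, which the loop drives and which carry the rhythm on to other genes through D-box sequences. Nfil3 (E4bp4) encodes a related bZIP protein that binds the same D-boxes and represses them, and its own message is known to peak at the opposite phase. Usp2 encodes a ubiquitin-specific protease whose message is rhythmic in many tissues and whose protein acts on clock proteins.

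The promoters of the members that varied most, Dbp, Tef and Usp2, and of their antagonist Nfil3 are shown because clock factors bind such regions. They run 5′ to 3′ over the 250 bases before each start of transcription (RefSeq, build GRCm38.p6), in lower case with motif matches in capitals. The motifs searched on both strands were the E-box CACGTG, which is its own reverse complement, the D-box TTATGTAA or TTATGCAA, and the core AGGTCA that ROR and REV-ERB receptors recognise.
Dbp (chr7:45704997-45705246, plus strand): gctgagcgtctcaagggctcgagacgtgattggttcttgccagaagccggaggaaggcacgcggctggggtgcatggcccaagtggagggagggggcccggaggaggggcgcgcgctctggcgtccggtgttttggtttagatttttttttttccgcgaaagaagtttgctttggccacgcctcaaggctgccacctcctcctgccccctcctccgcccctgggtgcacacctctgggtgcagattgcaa
Tef, upstream start (chr15:81802423-81802672, plus strand): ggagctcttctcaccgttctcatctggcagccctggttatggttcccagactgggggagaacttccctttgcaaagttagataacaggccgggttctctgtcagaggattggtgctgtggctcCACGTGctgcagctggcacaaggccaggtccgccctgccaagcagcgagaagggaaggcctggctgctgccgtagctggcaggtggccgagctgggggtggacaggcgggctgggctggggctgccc
Tef, downstream start (chr15:81811164-81811413, plus strand): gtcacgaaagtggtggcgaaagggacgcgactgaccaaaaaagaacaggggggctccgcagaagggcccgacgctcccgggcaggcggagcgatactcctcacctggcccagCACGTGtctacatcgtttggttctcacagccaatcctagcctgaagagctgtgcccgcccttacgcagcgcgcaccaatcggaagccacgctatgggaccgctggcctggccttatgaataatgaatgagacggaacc
Nfil3 (chr13:52981040-52981289, minus strand): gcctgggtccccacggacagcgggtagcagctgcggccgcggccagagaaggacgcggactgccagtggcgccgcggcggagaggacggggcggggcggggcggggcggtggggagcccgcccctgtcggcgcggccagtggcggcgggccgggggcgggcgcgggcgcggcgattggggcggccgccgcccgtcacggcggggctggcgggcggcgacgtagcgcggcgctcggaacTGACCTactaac
Usp2 (chr9:44084670-44084919, plus strand): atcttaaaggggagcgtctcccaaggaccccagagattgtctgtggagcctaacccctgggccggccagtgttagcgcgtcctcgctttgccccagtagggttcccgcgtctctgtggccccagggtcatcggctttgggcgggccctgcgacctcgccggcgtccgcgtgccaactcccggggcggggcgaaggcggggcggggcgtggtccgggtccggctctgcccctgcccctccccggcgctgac
Each of the 2 Tef promoters held an E-box, 127 and 138 bases before the start, and Nfil3 held the ROR core on the opposite strand 12 bases before its start. Dbp, Usp2 and Hlf held none of these letters in this window. Of 32851 promoters in the table, 6.02% held the E-box, 1.5% the D-box and 14.0% the ROR core.

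In intensity, Dbp spanned the widest range of the 5 genes. Its signal was 124 at the lowest, 843 at the median and 1504 at the highest of the 40 arrays, a 12.2-fold range, against a median signal of 62.9 to 63.0 over all probes of an array. Tef ranged from 71.5 to 180 with a median of 154 in its brighter probe, and Usp2 from 123 to 373 with a median of 247. Nfil3 was dim, from 63.2 to 135 with a median of 80.5. Hlf lay near the array median, from 60.8 to 74.9, and exceeded it in 34 of 40 arrays. The second Tef probe (60.9 to 75.9) lay as low, and the other 2 Usp2 probes, with medians of 58.6 and 57.4, did not pass. Because background was not subtracted, differences between dim signals are compressed, and a level of 1 probe cannot be set against that of another.

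For Dbp, animals of HF dams lay in the upper part of the range, although the difference did not pass the test across all probes given further on. Its signal was 672 at the lowest, 1011 at the median and 1283 at the highest in HF_HF mice, and 724.6, 1005 and 1504 in HF_LF mice, against 124, 663 and 1277 in LF_HF mice and 380, 640 and 966 in LF_LF mice. All 20 animals of HF dams lay above the median of the 20 animals of LF dams, and 3 lay above every one of those, so the groups overlapped. Group means were 964 ± 228 in HF_HF and 1052 ± 246 in HF_LF mice, against 645 ± 385 in LF_HF and 630 ± 171 in LF_LF mice (SD, n = 10 each).

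Usp2, the protease gene, was higher in offspring of HF dams too, and passed that test. Its signal was 159.5 at the lowest, 258 at the median and 362 at the highest in HF_HF mice, and 211.5, 295 and 373 in HF_LF mice, against 129, 193 and 352 in LF_HF mice and 123, 184 and 262.5 in LF_LF mice. Of the 20 animals of HF dams, 19 lay above the median of LF dams. The 2 dim Usp2 probes that were not tested lay on the same side, with 15 and 17 of 20 animals of HF dams above the median of LF dams.

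Tef, the second PAR bZIP factor, overlapped throughout. Its signal was 128 at the lowest, 152 at the median and 167 at the highest in HF_HF mice, and 141, 162 and 180 in HF_LF mice, against 71.5, 143 and 176 in LF_HF mice and 127, 151 and 177 in LF_LF mice. Of the 20 animals of HF dams, 14 lay above the median of LF dams. For Nfil3, which competes with these factors, 7 of 20 lay above it, with medians of 80.7 in HF_HF and 77.1 in HF_LF mice, against 85.2 in LF_HF and 79.8 in LF_LF mice. Hlf, the third factor, had 11 of 20 above it, with medians of 67.9 in HF_HF and 69.0 in HF_LF mice, against 65.2 in LF_HF and 68.2 in LF_LF mice.

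**Figure D1:**
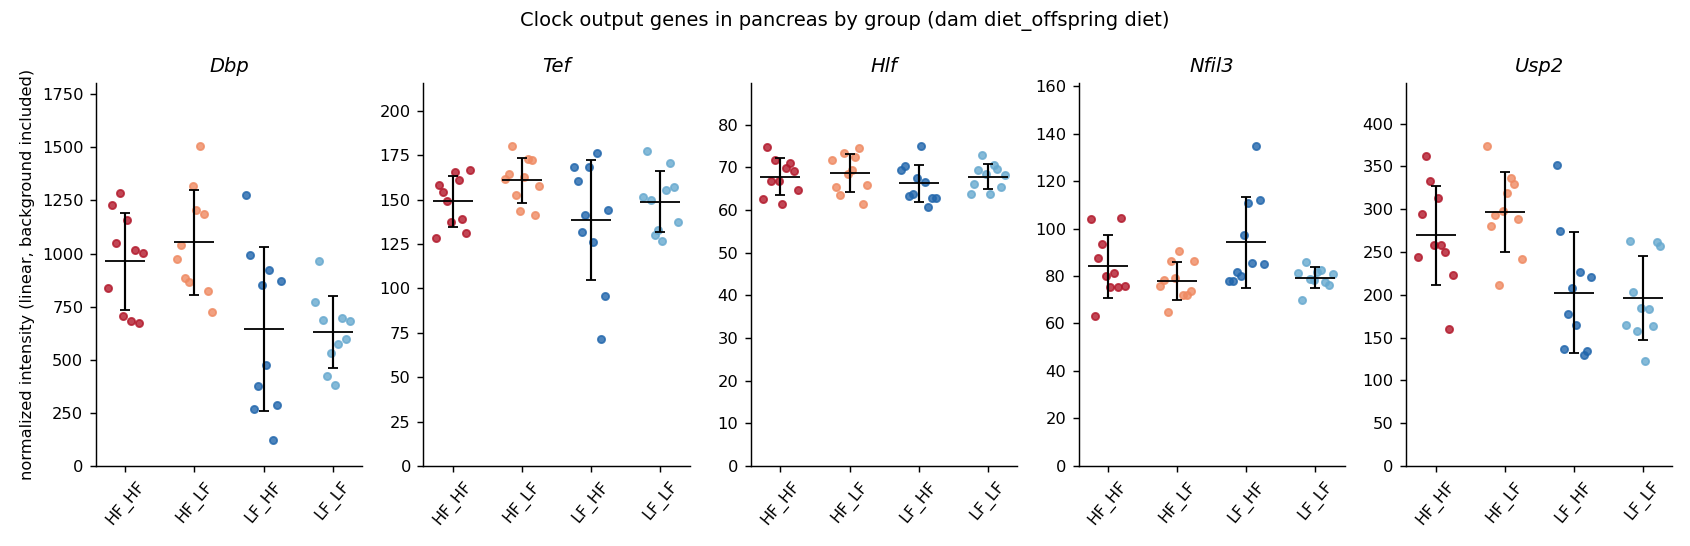
Normalized intensity (linear scale, background included) of the brightest probe of each gene in 40 pancreas arrays, by group, 1 point per animal, with the group mean and SD as bars. Dbp and Usp2 sit higher in the HF_HF and HF_LF groups, all 10 HF_LF animals lie above the LF_LF median for both genes, and Hlf stays between 60.8 and 74.9 in all groups.

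Averaged over the diets after weaning, Usp2 rose 1.45-fold in offspring of HF dams against LF dams (log2 difference 0.54, SE 0.108, limma adjusted p = 0.0383), and it ranked 4th of 12246 tested probes. It was the only member probe of 6 called at an adjusted p under 0.05, and 2 had an unadjusted p under 0.05. Over all probes tested, 8 or 0.0653% were called, and 1183 (9.66%) had an unadjusted p under 0.05. Dbp had the larger difference, 1.74-fold (log2 0.80, SE 0.185), but with an adjusted p of 0.0601 it did not pass, at rank 18. Tef differed by 0.13 on the log2 scale (SE 0.0722, limma adjusted p = 0.571), Hlf by 0.03 (SE 0.0274) and Nfil3 by -0.09 (SE 0.0593, limma adjusted p = 0.655), and none of the 3 passed. The call of Usp2 was lost with no filter on dim probes, with 1 value per cage and diet, where its difference was 0.50 and its adjusted p 0.459, and on leaving out cage 4, 6, 9, 10, 11, 20 or 23 in turn. Dbp was called as well on leaving out cage 8, 12 or 14, its adjusted p being 0.00554 without cage 14. The dam diet was given to whole cages, so animals of a cage are not separate trials of it.

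In mice fed LF after weaning, HF_LF animals had 1.69-fold more Dbp than LF_LF animals (log2 difference 0.75, SE 0.149, limma adjusted p = 0.0595) and 1.54-fold more Usp2 (0.62, SE 0.125, limma adjusted p = 0.0598). All 10 HF_LF animals lay above the LF_LF median for both genes, and 6 of them for Dbp and 8 for Usp2 lay above the highest LF_LF animal. No member was called, nor any of the 12246 probes (0%), the lowest adjusted p being 0.0568, while 1051 probes and 2 of the 6 member probes had an unadjusted p under 0.05. With a regularized test after Cyber-T, chosen here because the methods describe Bayesian shrinkage without naming a tool, and with settings assumed, 8 probes were called, Dbp and Usp2 among them at adjusted p of 0.0143 and 0.0158. Both were also called without cage 8, and Usp2 without cage 11. Markers of other cells moved in this comparison too, although none was called. All 6 tested adipocyte markers were lower in HF_LF mice (median log2 difference -0.532, 4 at an unadjusted p under 0.05), with a mean level of -0.604 to 0.295 in HF_LF mice against -0.667 to 2.4 in LF_LF mice. All 7 myeloid markers were lower as well (median -0.218, 2 at an unadjusted p under 0.05), and 10 of 11 hepatocyte markers were higher (median 0.253, 0 at an unadjusted p under 0.05). Of 6 fibroblast markers 1 was higher (median -0.0763), and of 5 endothelial markers 1 (median -0.0745). In each of these 2 lists, 2 markers had an unadjusted p under 0.05. Their part in the values of Dbp and Usp2 was not tested. In mice fed HF after weaning, HF_HF animals had 1.80-fold more Dbp than LF_HF animals (0.85, SE 0.316, limma adjusted p = 0.765) and 1.37-fold more Usp2 (0.45, SE 0.163, limma adjusted p = 0.750). Here too no member and no probe (0%) was called, nor by the regularized test, and 761 probes and 2 member probes had an unadjusted p under 0.05. All 11 hepatocyte markers were lower in HF_HF mice (median -0.417, none called, 1 at an unadjusted p under 0.05). The spread of Dbp among LF_HF animals, an SD of 385, was the widest of the 4 groups.

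**Figure D2:**
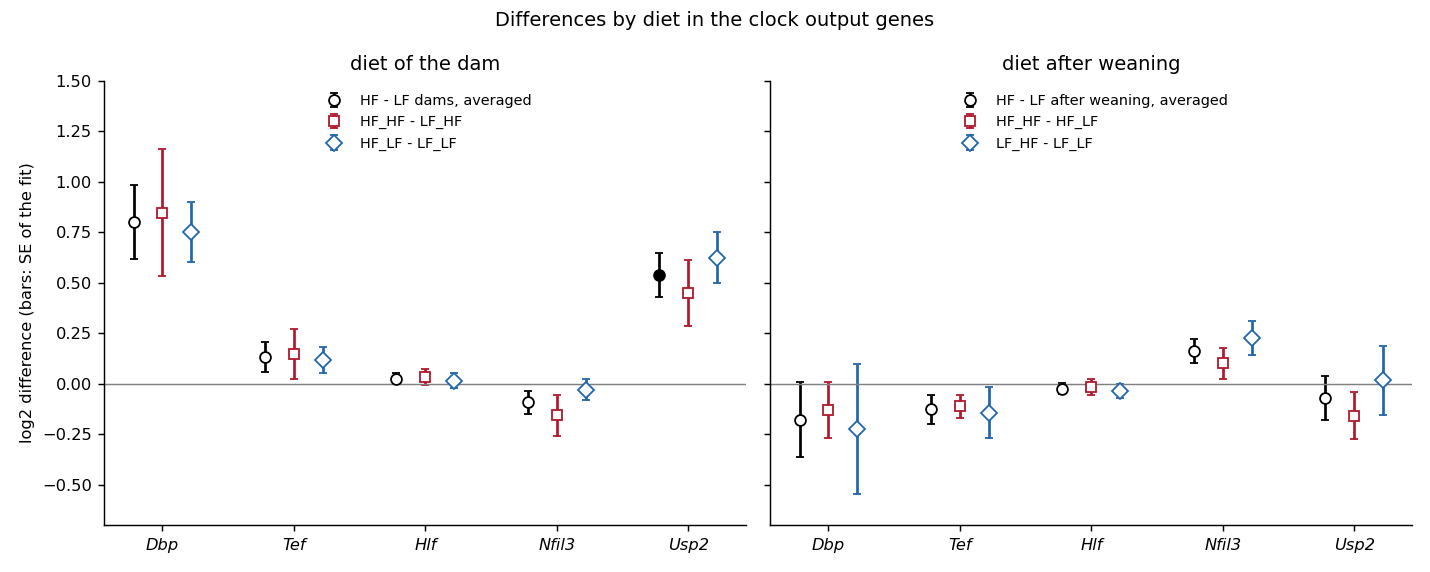
Log2 difference (HF minus LF) of each gene by diet of the dam (left) and by diet after weaning (right), averaged and within each diet, with the SE of the fit as bars. The filled point marks the only called value, Usp2 by dam diet at 0.54, and Dbp by dam diet lies between 0.75 and 0.85 in all 3 comparisons.

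No member was called by diet after weaning. In offspring of HF dams, none was among the 274 called probes (2.24%). Log2 differences between HF_HF and HF_LF mice ran from -0.16 for Usp2 to 0.10 for Nfil3. At an unadjusted p under 0.05 stood 0 member probes, against 2157 of all probes (17.6%). In offspring of LF dams, where 5 probes or 0.0408% were called, no member was called either. There, 1 member probe had an unadjusted p under 0.05, against 1096 of all probes (8.95%). The regularized test called no member in these 2 comparisons. The lowest adjusted p from HF dams was that of Tef (-0.11, limma adjusted p = 0.318), and from LF dams that of Nfil3, the repressor of D-boxes. The signal of Nfil3 was 77.7 at the lowest, 85.2 at the median and 135 at the highest in LF_HF mice, against 70.1, 79.8 and 86.1 in LF_LF mice, and 4 LF_HF animals lay above the highest LF_LF animal. The difference was 0.23 on the log2 scale (SE 0.083, limma adjusted p = 0.360).

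Averaged over dam diets, Nfil3 differed by 0.16 (1.12-fold, SE 0.0593, limma adjusted p = 0.0985) between HF and LF fed mice, and no member was among the 639 called probes (5.22%), and 1 of the 6 member probes had an unadjusted p under 0.05, against 2344 of all 12246 probes (19.1%). Without cage 14 Nfil3 was called (limma adjusted p = 0.0476). Tef differed by -0.13 (SE 0.0722, limma adjusted p = 0.342) and Dbp by -0.18 (SE 0.185, limma adjusted p = 0.671). The difference between the diet effects of the 2 kinds of dam was tested as an interaction and passed in no member. Interaction terms ran from -0.17 for Usp2 to 0.09 for Dbp, with adjusted p of 0.894 and above, 0% of probes and 0 members were called, 676 probes had an unadjusted p under 0.05, and no member probe did.

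Within the 5 cages that held both diets after weaning, the comparison is free of differences between cages of birth, as the label is read here. Which animals shared a cage after weaning was not given in the sources used here. Dbp was lower in the HF fed than in the LF fed animals of all 5 cages, by 0.18 to 1.03 on the log2 scale with a mean difference of -0.49 ± 0.332 (SD). Nfil3 was higher in all 5, by a mean of 0.21 ± 0.224, but hardly so in cages 23 (0.0022) and 4 (0.025). Its largest differences were 0.43 in cage 10 and 0.47 in cage 11. Cage 10 held 1 HF fed animal and cage 20 held 1 LF fed animal. Tef was lower in 4 of the 5 cages, Hlf in 4 and Usp2 in 3. An exact two-sided sign-flip permutation test, added after the data were seen, gave p = 0.0625 for Dbp and for Nfil3. That is the smallest value that 5 cages allow. With the cage as a fixed block, the averaged difference of Dbp was -0.52 (SE 0.192, limma adjusted p = 0.172), and that of Nfil3 was 0.19 (SE 0.0825, limma adjusted p = 0.251).

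Cage means of Dbp spread widely within each dam diet. In HF dam cages the mean signal of Dbp was 1264 in cage 23, 949 in cage 10, 933 in cage 20, 898 in cage 21, 876 in cage 1 and 774 in cage 12. In LF dam cages it was 1136 in cage 14, 808 in cage 8, 749 in cage 9, 634.5 in cage 6, 512 in cage 11 and 396 in cage 4. Cage 14, with 2 LF_HF animals at 1277 and 994.5, thus ranked beside cage 23 rather than beside the other cages of LF dams. The 5 animals of cage 4 lay between 270 and 531, below all animals of HF dams, on whichever diet they were raised. Neighbours in this order, such as cages 10, 20, 21 and 1, overlapped in their single values.

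For Usp2, cages 23 and 14 were again the highest of their dam diet and cage 4 the lowest of all. Its cage means were 324 in cage 23, 299 in cage 10, 290 in cage 20, 265 in cage 12, 252 in cage 1 and 211 in cage 21 among HF dams. Among LF dams they were 313 in cage 14, 210 in cage 8, 201 in cage 11, 199.8 in cage 9, 173 in cage 6 and 156 in cage 4.

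**Figure D3:**
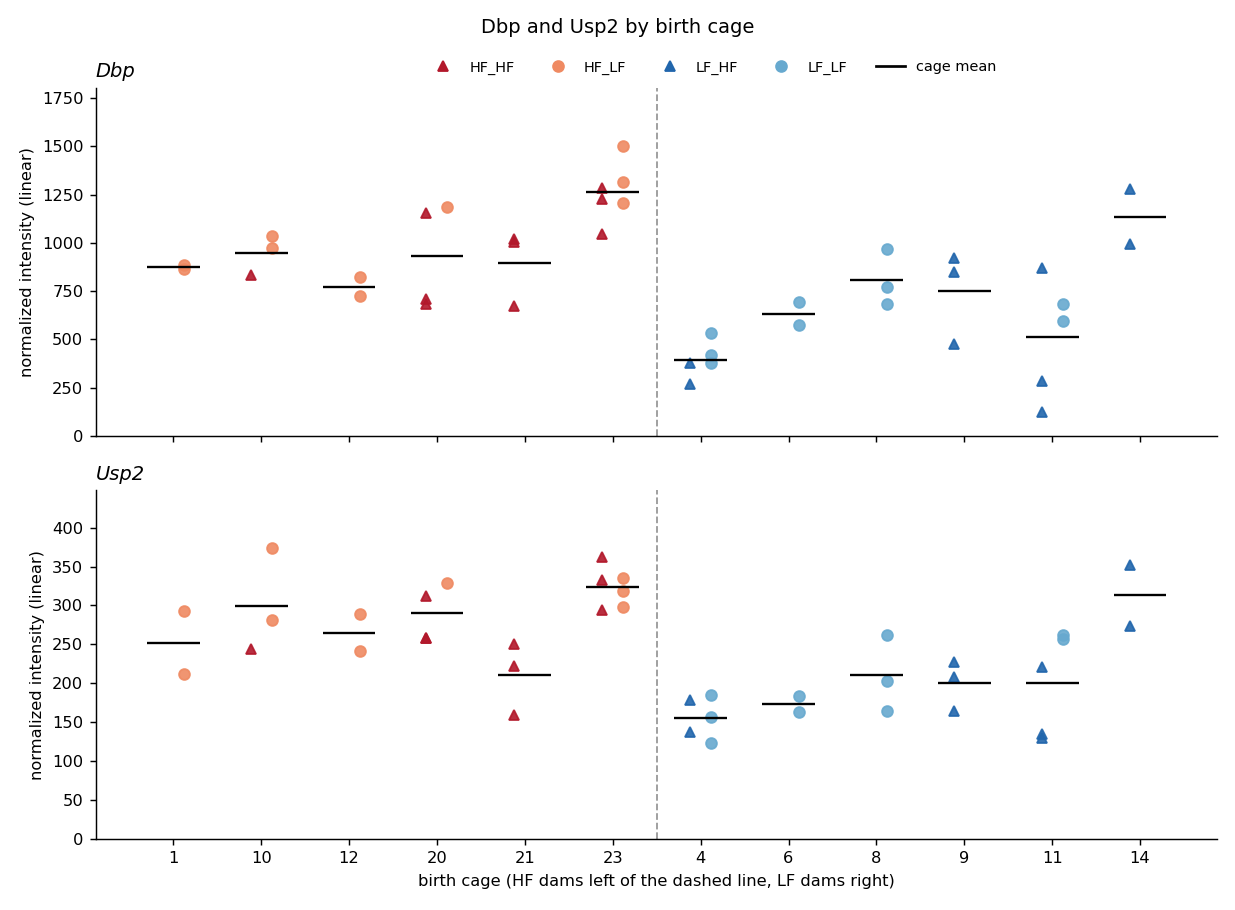
Normalized intensity (linear) of Dbp and Usp2 in each animal by cage of birth, cages of HF dams left and of LF dams right of the dashed line, with triangles for HF and circles for LF fed animals and a line at the cage mean. Cage 14 of LF dams, at a mean of 1136 for Dbp, lies among the highest cages, and cage 4 at 396 is the lowest.

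Of the variance of Dbp within groups, 45.6% lay between cages, and of that of Usp2, 44.5%. The median over all tested probes was 1.97% and the 90th percentile 26.9%, so that 98.5% and 98.3% of probes had a lower share than these 2 genes. The share was 26.4% for Hlf, 22.9% for Tef and -6.91% for Nfil3. An estimate below 0 occurs when cage means vary less than the scatter of animals within cages would give by itself. In the test of cage terms beside the group means, Dbp had F = 4.12 (limma adjusted p = 0.192, rank 70) and Usp2 F = 3.88 (limma adjusted p = 0.244, rank 84). Neither was called, against 7 called probes or 0.0572% of those tested. Of the member probes, 2 had an unadjusted p under 0.05, against 971 of all probes (7.93%). Without cage 11, whose 5 animals ran from 124 to 870, Dbp was called (F = 9.30, limma adjusted p = 0.0164). The 7 called probes were those of Sgk1 (limma adjusted p = 0.00246), Slc7a3, Upp2, Vldlr, Fkbp5 (limma adjusted p = 0.0472) and Mat1a, and a probe without a gene symbol. Sgk1 and Fkbp5 are induced by glucocorticoids, and they were the 2 called of 6 tested genes of that list. Any link of these genes to the cage differences of Dbp and Usp2 was not tested.

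Taking the cage as the unit, an exact two-sided permutation test of 6 cage means of HF dams against 6 of LF dams gave a log2 difference of 0.42 for Usp2 (p = 0.0368) and 0.55 for Dbp (p = 0.0693), where 924 arrangements allow a smallest p of 0.00216. Only 1 cage of HF dams, cage 23, lay above the highest cage of LF dams for either gene. Over the LF fed animals alone, 5 cages against 4, exact permutation gave 0.60 for Usp2 (p = 0.0159, the smallest that this layout allows) and 0.73 for Dbp (p = 0.0238), and 4 of the 5 cages of HF dams lay above every cage of LF dams. Over the HF fed animals, 4 cages against 4, the exact p was 0.171 for Usp2 and 0.2 for Dbp, where 0.0286 is the smallest possible. In the same exact permutation over all 12 cages, p was 0.5 for Tef, 0.92 for Hlf and 0.31 for Nfil3. These 15 tests, on 5 genes in 3 sets of animals, were added after the data were seen and are given uncorrected. After Benjamini-Hochberg correction over the 5 genes of a set, none of them passed 0.05, Usp2 included.

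The members varied together from animal to animal, also after group means were removed. Over 40 arrays, deviations of Dbp from its group means correlated with those of Tef (r = 0.815, rho = 0.685) and of Usp2 (r = 0.76, rho = 0.761), and Tef with Usp2 (r = 0.61, rho = 0.576). Each r had a permutation p of 1e-05, the smallest that 100000 resamples give, and 2.5e-05 after Benjamini-Hochberg over 10 pairs. The p of rho was 1e-05 for Dbp with Tef and with Usp2 and 0.00012 for Tef with Usp2 (5e-05 and 0.0003 after correction). Without the 2 arrays farthest from the median of the x measure, r was 0.723, 0.744 and 0.541 in the order given.

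Nfil3 ran the other way. Its deviations correlated with Tef at r = -0.682 and rho = -0.604 (permutation p = 1e-05 and 7e-05, adjusted 2.5e-05 and 0.000233), with Dbp at r = -0.523 and rho = -0.348 (permutation p = 0.00079 and 0.0284, adjusted 0.00158 and 0.0473) and with Usp2 at r = -0.498 and rho = -0.426 (permutation p = 0.00114 and 0.00708, adjusted 0.0019 and 0.0142). Without the 2 farthest arrays, r was -0.462, -0.431 and -0.37 for Tef, Dbp and Usp2. Signs were the same within each of the 4 groups for all 6 pairs among Dbp, Tef, Usp2 and Nfil3. They were also the same for deviations from the means of each cage and diet, where r was 0.865 for Dbp with Tef, 0.698 for Dbp with Usp2 and -0.707 for Tef with Nfil3. The permutations treat the 40 animals as exchangeable, which animals of a cage are not.

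Correlations of Hlf with the other members were low. Its r was 0.346 with Dbp (rho = 0.312, permutation p = 0.0285 and 0.0503, adjusted 0.0407 and 0.0719), 0.268 with Tef (rho = 0.204, permutation p = 0.0932 and 0.206, adjusted 0.116 and 0.229), 0.218 with Usp2 (rho = 0.224, permutation p = 0.178 and 0.165, adjusted 0.198 and 0.207) and -0.108 with Nfil3 (rho = -0.0372, permutation p = 0.511 and 0.82, adjusted 0.511 and 0.82). Its r with Dbp, Tef, Usp2 and Nfil3 without the farthest arrays was 0.21, 0.048, 0.21 and -0.0328. Its signal lay near the array median, and the part of this dimness in its low r was not tested.

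**Figure D4:**
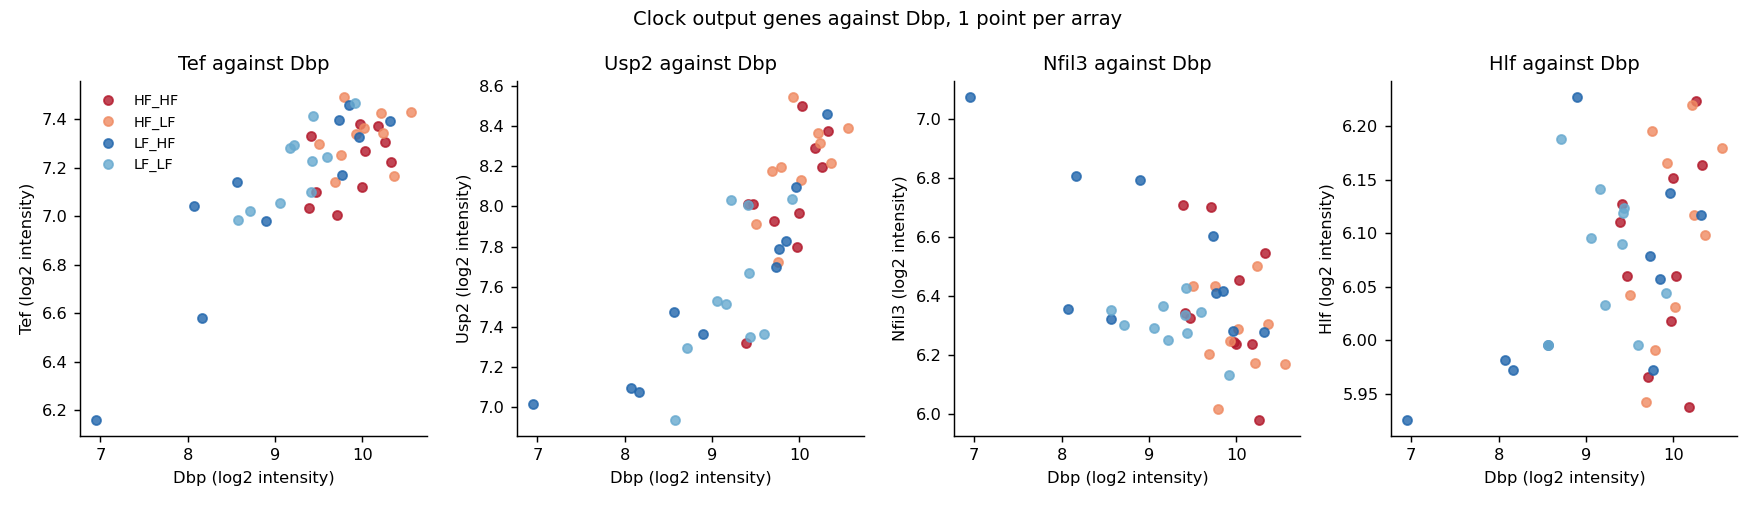
Log2 intensity of Tef, Usp2, Nfil3 and Hlf against that of Dbp, 1 point per array, coloured by group. Tef and Usp2 rise and Nfil3 falls along Dbp within the groups, the LF_HF animal lowest in Dbp (124) is also lowest in Tef (71.5) and highest in Nfil3 (135), and Hlf had an r of 0.346 with Dbp within groups.

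Cage 11 held the animal at the low end of Dbp and Tef and at the high end of Nfil3. The 3 LF_HF animals of that cage had 124, 286 and 870 of Dbp, 71.5, 95.6 and 144 of Tef, 129, 135 and 221 of Usp2 and 135, 112 and 85 of Nfil3, each list in the same order of animals. That animal was an LF_HF mouse, whereas the lowest Usp2 of all 40 (123) was in cage 4. The animal with 286 of Dbp also had the highest adipocyte marker mean of its group, 1.1 above the average array on the log2 scale, whereas the animal with 124 lay at -0.485. Their cage mate at 870 lay inside the range of the other groups for all 4 genes. Leaving out cage 11 brought the Dbp difference by dam diet in HF fed mice to 0.53 (SE 0.255), against 0.85 with it, and the averaged difference to 0.65 (limma adjusted p = 0.156).

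Of 8857 other genes, those most like Dbp over the 40 arrays were largely clock genes, as a description and with no test. Usp2 stood highest (r = 0.834), followed by the repressor Per2 (0.813), Tef (0.804), the repressor Ciart (0.754), Ivd, an enzyme of leucine breakdown (0.704), and Hk2, a hexokinase (0.631). Tbcel (0.6), D930020B18Rik (0.584), Cry2 (0.582) and Per1 (0.579) completed the 10 highest. The lowest were Plekha1 (-0.734), Leprotl1 (-0.686), Arhgap24 (-0.639), the activator Clock (-0.608) and Fpgs (-0.606). Over deviations from cage and diet means, the r of Per2 was 0.722 and that of Cry2 0.612, whereas that of Hk2 was 0.194 and that of Plekha1 -0.297. All of these share the arrays, and genes are not independent of each other.

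**Figure D5:**
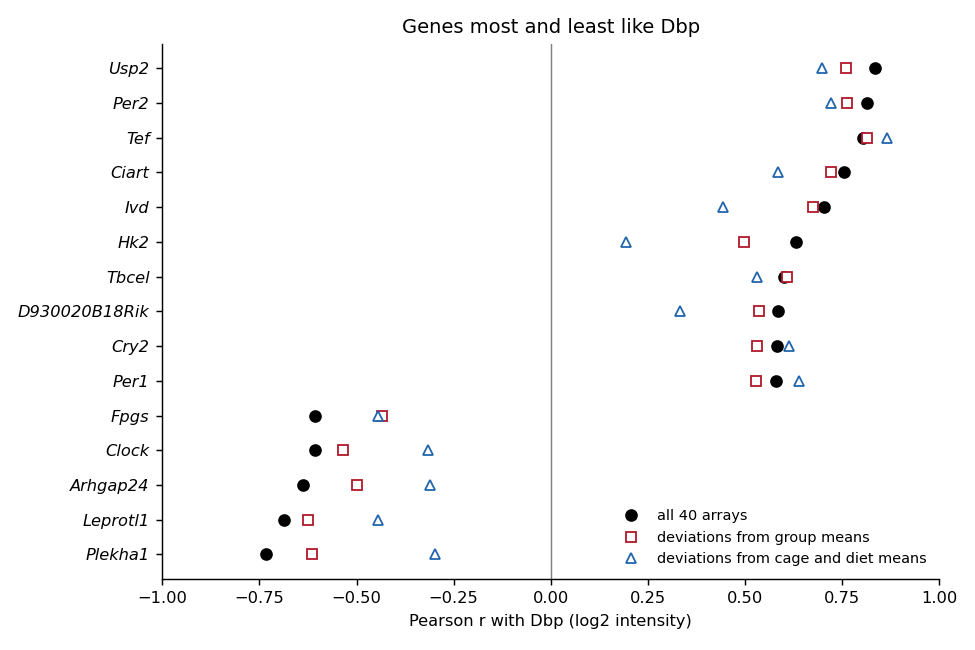
Pearson r with Dbp over 40 arrays for the 10 genes most and the 5 least like it, as log2 values (filled circles), deviations from group means (squares) and deviations from cage and diet means (triangles). Tef, Per2, Usp2, Per1 and Cry2 have an r of 0.612 or more in the triangles, while Hk2 stands at 0.194.

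The neighbours of the other members were listed in the same way. Tef was most like Dbp, Per2 (r = 0.749), Usp2, Cry2 (0.557) and Ciart (0.54), and least like Nfil3 (-0.723), the cell cycle inhibitor Cdkn1a (-0.686) and Nr1h4, the bile acid receptor FXR (-0.619). Usp2 was most like Dbp, Ciart (0.818), Per2 (0.789), Ivd (0.729) and Hk2 (0.685), and least like Arhgap24 (-0.729), Plekha1 (-0.715) and Leprotl1 (-0.678). Nfil3 was least like Tef, Per2 (-0.633) and Tulp4 (-0.598), while its highest r was 0.626, with the olfactory receptor gene Olfr982. The 5 highest for Hlf, from Scly (0.629) to Olfr1449 (0.551), and the 3 lowest, Spata6 (-0.622), Mrps25 (-0.592) and Arhgap29 (-0.525), held no clock gene. The remaining high neighbours of Nfil3 were Mrm1, Csn1s2b, Ppcdc and Syn2.

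Arntl, the partner of Clock, did not pass the filter (54.5 at the lowest, 61.1 at the median and 73.3 at the highest, above the array median in 15 arrays). Its r was -0.765 with Dbp, -0.723 with Usp2, -0.585 with Tef and 0.457 with Nfil3. Npas2, Bhlhe41 and Cry1 lay at medians of 58.9, 53.0 and 52.9 and did not pass either. Per3 had an r of 0.573 with Dbp, Nr1d2 (REV-ERB beta) 0.36 and Nr1d1 (REV-ERB alpha) 0.345, which ranked 11th, 117th and 136th.

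The core clock was read in the same comparison of dams. Of 10 clock repressors, 8 were tested, none was called by dam diet averaged, 7 were higher in offspring of HF dams and 4 had an unadjusted p under 0.05, with a median log2 difference of 0.128 against -0.0003 over all tested probes, of which 9.66% had an unadjusted p under 0.05. Per2 differed by 0.30 (1.23-fold, limma adjusted p = 0.0601) with a signal of 158 ± 24.4 in HF_HF and 188 ± 16.6 in HF_LF mice, against 137 ± 28.6 in LF_HF and 145 ± 20.5 in LF_LF mice (SD, n = 10 each). Ciart differed by 0.22 (limma adjusted p = 0.102), Per3 by 0.10 and Nr1d2 by 0.20, and Nr1d1 by -0.01. The activators were represented by Clock, at -0.17 (limma adjusted p = 0.228), and Rora, at 0.04. In LF fed mice alone, Ciart (0.36, limma adjusted p = 0.0568) and Per2 (0.38, limma adjusted p = 0.0595) ranked beside Dbp and Usp2.

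Other lists held no call for the dam diet. None of 5 tested kinases and ligases of the clock was called, Csnk1d being nearest at 0.07 (limma adjusted p = 0.481), and none of 9 other clock-controlled genes, Noct (0.11, limma adjusted p = 0.458) and Klf9 (0.12, limma adjusted p = 0.543) being nearest. Of 6 glucocorticoid-induced genes, none was called, with Fkbp5 at 0.44 (limma adjusted p = 0.0601) and the cell cycle inhibitor Cdkn1c at -0.08 (limma adjusted p = 0.512). Of 7 temperature-responsive genes, none was called, with Cirbp at 0.11 (limma adjusted p = 0.452). None of 8 C/EBP and CREB family genes was called. At an unadjusted p under 0.05 stood 1 of the kinases and ligases, 1 of the clock-controlled, 2 of the glucocorticoid-induced, 2 of the temperature-responsive and 0 of the C/EBP and CREB genes. Of all tested probes, 9.66% had such a p. Medians of these lists lay between -0.0379 and 0.018.

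By diet after weaning, averaged over dams, 3 of these lists held a call each, where 5.22% of all tested probes were called. These were 1 of 8 C/EBP and CREB genes, 1 of 6 glucocorticoid-induced and 1 of 7 temperature-responsive genes. Atf5, a stress-induced factor of the CREB family, rose by 0.66 in HF fed mice (limma adjusted p = 0.000807). Errfi1, which restrains EGF receptor signalling, fell by 0.37 in HF fed mice (limma adjusted p = 0.0237), and Rbm3, a cold-induced RNA-binding protein, fell by 0.58 (limma adjusted p = 5.47e-05). Among 8 clock repressors none was called and 3 had an unadjusted p under 0.05, as did 19.1% of all tested probes, Per2 being at -0.18 (limma adjusted p = 0.115) and Ciart at -0.12 (limma adjusted p = 0.228). Cdkn1a was at 0.19 (limma adjusted p = 0.258).

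Within groups, common slopes on fasting glucose and on the second of the 2 weights in the labels gave no called member and no called probe (0% in each). Of the member probes, 1 had an unadjusted p under 0.05 for glucose and none for weight, against 1343 and 677 of all probes. The labels tag this weight as that at weaning, but it ran from 20.4 to 34.1 g, and at which age it was taken is unsure. The slope of Dbp was -0.00113 per mg/dl of glucose (SE 0.00294) and -0.07 per g of weight (SE 0.059).

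The tissue was checked by its markers. Of 13 acinar markers 12 were tested, of 12 islet markers 9 and of 7 duct markers 4. None was called by dam diet, and 1 acinar marker had an unadjusted p under 0.05, against 9.66% of all tested probes. In bulk tissue, fewer cells of a type and less RNA per cell cannot be told apart. The 6 tested of 10 adipocyte markers were all lower in offspring of HF dams, with a median log2 difference of -0.256, none called and 0 at an unadjusted p under 0.05. Their mean level ran from -0.631 to 0.846 in HF_HF and from -0.604 to 0.295 in HF_LF mice, against -0.55 to 1.1 in LF_HF and -0.667 to 2.4 in LF_LF mice. The r of this level was 0.0384 with Dbp and -0.139 with Usp2. Of the 9 marker lists, the acinar level had the strongest r with Dbp (-0.37) and with Usp2 (-0.435), while its r with Hlf was 0.0638. Its part in their values was not tested. Pairs of arrays correlated at 0.929 to 0.992, and 3 arrays stood apart from the rest, 1 each in HF_HF, LF_HF and LF_LF. The LF_HF array held the highest Dbp (1277) and Usp2 (352) of all animals of LF dams. Dbp and Usp2 were 707 and 258 in the HF_HF array and 772 and 165 in the LF_LF array. Without these 3 arrays the averaged difference by dam diet was 0.91 for Dbp (limma adjusted p = 0.0127) and 0.58 for Usp2 (limma adjusted p = 0.00755). Both were thus called in a set that lacks the highest animal of LF dams.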

How the data were processed

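RNA from 40 pancreata was hybridised to the MouseRef-8 v2.0 beadchip of Illumina. The deposited values are linear signal intensity, exported by the authors with BeadStudio (version not given in the sources used here) and quantile normalized over the 40 arrays, without background subtraction. The files gave no detection p-values. Genes were named from GEO's platform annotation.

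The log2 of each intensity was analysed. Probes brighter than the median probe of the same array on 20 or more arrays were kept, 12246 in all (8858 genes). Groups were compared with limma 3.58.1 in R 4.3.3 with an intensity trend and two-sided tests. P-values were adjusted after Benjamini and Hochberg over all kept probes, and an adjusted p under 0.05 was a call. The pairs of groups were fitted on their 20 arrays, the averaged effects, interaction, slopes and cage terms on all 40. Correlations and exact permutation tests used numpy 2.4.6 and scipy 1.17.1 in Python 3.11.15, and figures matplotlib 3.10.9. The fits were tested on simulated data. For the dam diet these held no differences between cages, so they cannot show how often calls arise where cages differ. The number of arrays limits the precision.

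The members and lists were chosen with earlier results of these data known. Exact tests over cages, the share of variance between cages and the within-cage differences were added after the data were seen. Named genes were all member probes, the listed clock genes, up to 4 genes with the smallest p per list and comparison, the 10 highest and 5 lowest in likeness to Dbp, and the 5 and 3 for the others. A protein comparison was not made here.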

Additional observations from a re-analysis of the deposited data

How the results depend on the processing

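No paired analysis was possible because the numbers of the animals do not pair them across groups, apart from the diets after weaning, which were compared within the 5 cages that held both. The alternatives were all 40 arrays in 1 fit, a regularized test after Cyber-T (settings assumed), no intensity trend, no filter on dim probes, a stricter filter that keeps the brightest tercile, background subtraction, array weights, leaving out the 3 arrays that stand apart, the cage as a random or fixed block, 1 value per cage and diet, and leaving out each cage. Of 191 counts of called members under these, 168 did not change. For the dam diet averaged, the only comparison with a called member, the count changed in 15 of 20 alternatives. Where a count did change, the cause was not tested.

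By dam diet averaged, 1 member was called, 2 with the stricter filter, array weights, without the arrays that stand apart, and without cage 8, 12 or 14, and 0 with no filter, with 1 value per cage and diet, and without cage 4, 6, 9, 10, 11, 20 or 23. Usp2 ran from 0.43 without cage 4 to 0.65 with background subtraction, and Dbp from 0.61 without cage 4 to 0.94 without cage 14, and neither changed direction. In LF fed mice, 0 members were called by dam diet, but 2 with the Cyber-T test, the stricter filter and without cage 8, and 1 with array weights (Dbp), without the arrays that stand apart (Dbp) and without cage 11 (Usp2). By diet after weaning averaged, 1 was called without cage 14 (Nfil3). For differences between cages, 1 was called without cage 11 (Dbp).

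Directions reversed only in values that were not called. By diet after weaning from LF dams, Usp2 was at -0.066 with array weights, -0.10 without the arrays that stand apart, -0.35 with the cage as a fixed block and, without cages 4, 6, 9 and 14, at -0.045, -0.019, -0.0011 and -0.16, and without cage 11 Dbp was at 0.11 and Tef at 0.037. Averaged over dams, Usp2 was at 0.049 without cage 11 and 0.0033 without cage 21. From HF dams, Hlf was at 0.014 without cage 20. By dam diet on HF, Tef was at -0.035 and Hlf at -0.0033 without cage 11. The cage as a random block changed no count. Its correlation, estimated over all probes, was 0.00175 for the averaged dam diet and 0.0217 for the dam diet in LF fed mice. These fits were thus nearly fits without a block. They cannot show whether a call withstands the differences between cages seen in Dbp and Usp2.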
